A study of Mus musculus with 36 samples.

Results

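Brains of mice with experimental autoimmune encephalomyelitis (EAE) that received farnesol were compared with brains of naive mice, taken whole according to the series' design text, in 15 RNA-seq libraries, 7 farnesol-treated EAE (replicates 4 to 10) and 8 naive (replicates 1 to 8). The 15 were chosen from the 36 libraries of the series by a measured value: each had the ribosomal RNA gene CT010467.1 above 4000 CPM (counts per 1000000 counts of its column). The remaining 3 farnesol libraries (replicates 1 to 3) lay below that value and are described only at the end, and untreated EAE (9 libraries) and vehicle EAE (9 libraries) were not used in this comparison. Both groups carry the genotype WT C57BL/6, and the labels give neither age nor sex. Xist was expressed in every one of the 15 libraries (329 CPM or more), and the Y-linked gene Ddx3y had 0 counts in each.

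The EAE mice had been immunized under the skin with a peptide of myelin oligodendrocyte glycoprotein (MOG35-55) in complete Freund's adjuvant and given pertussis toxin. They received trans,trans-farnesol in corn oil by gavage at 100 mg per kg per day, and brains were taken on day 19, at the peak of disease. Naive mice were healthy, and the labels give them no immunization, adjuvant, toxin, gavage, corn oil or farnesol. The effects of disease, adjuvant, toxin, oil and farnesol therefore cannot be told apart in this contrast, and no group received farnesol without EAE. The labels name each library a separate replicate of its group, do not name pooled animals, and do not say whether brains were perfused.

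EAE is a model of inflammatory demyelination in which myelin-reactive T cells enter the central nervous system and recruit monocytes and neutrophils across activated vessels. Microglia and astrocytes respond to their cytokines, interferon gamma above all raising the genes of antigen presentation and of large antimicrobial GTPases. Farnesol is the alcohol of farnesyl diphosphate, the branch point of the mevalonate pathway from which cells make sterols, ubiquinone and the lipid anchors of prenylated proteins.

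Total counts (M, in units of 1000000) ran from 15.4 to 19.9 M in the farnesol libraries and from 14.7 to 23.01 M in the naive ones. The cutoff did not make the groups equal in CT010467.1 (chr17:39846353-39848827, GRCm38), which spanned 5157 to 17624 CPM of the column total in farnesol libraries (median 12275) and 7047 to 10177 in naive ones (median 7628). Of the 7 farnesol libraries, 4 lay above every naive library, 2 within the naive range and 1, replicate 9, below it, so the groups were alike in this gene only in lying above the cutoff. Lars2 (512 to 908 against 351 to 471 CPM) and Rn7sk (8.19 to 22.2 against 6.20 to 10.4 CPM), chosen after their values were seen, were also higher in the farnesol libraries. Naive replicate 4 stood apart by its low cerebellar transcripts: the 14 cerebellar genes summed to 413 CPM there and to 1944 to 2448 CPM in the other 7 naive libraries. Whether these library differences contribute to the changes below was not tested, other than by the fits with the rRNA gene as a covariate and without single libraries given with the dependence on processing. Neuronal Snap25 (1802 CPM or more) and myelin Mbp (2702 CPM or more) were abundant in all 15 libraries, which carry the label brain.

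Of 17283 genes that passed the filter on low counts, 4872 (28.2%) differed between farnesol-treated EAE and naive brain at an adjusted p under 0.05. Of the genes tested, 14.9% were higher (2573 genes) and 13.3% lower (2299 genes). The counts of called genes in each list below are to be read beside these shares. The rises were the larger changes: 386 genes rose and 31 fell by more than 2-fold, and the median log2 change was 0.48 among called rises and -0.21 among called falls. Over all genes tested the median log2 change was 0.0061. In 1160 called genes, 6.71% of those tested, the 2 groups of libraries did not overlap. Changes are given as log2 ± standard error (SE) of farnesol minus naive, levels as CPM scaled by library-size factors, and adjusted p comes from edgeR's quasi-likelihood test over all 17283 genes. In bulk tissue, fewer cells of a type and less RNA per cell cannot be told apart. Levels in CPM are not divided by gene length and are compared only within a gene.

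**Figure D1:**
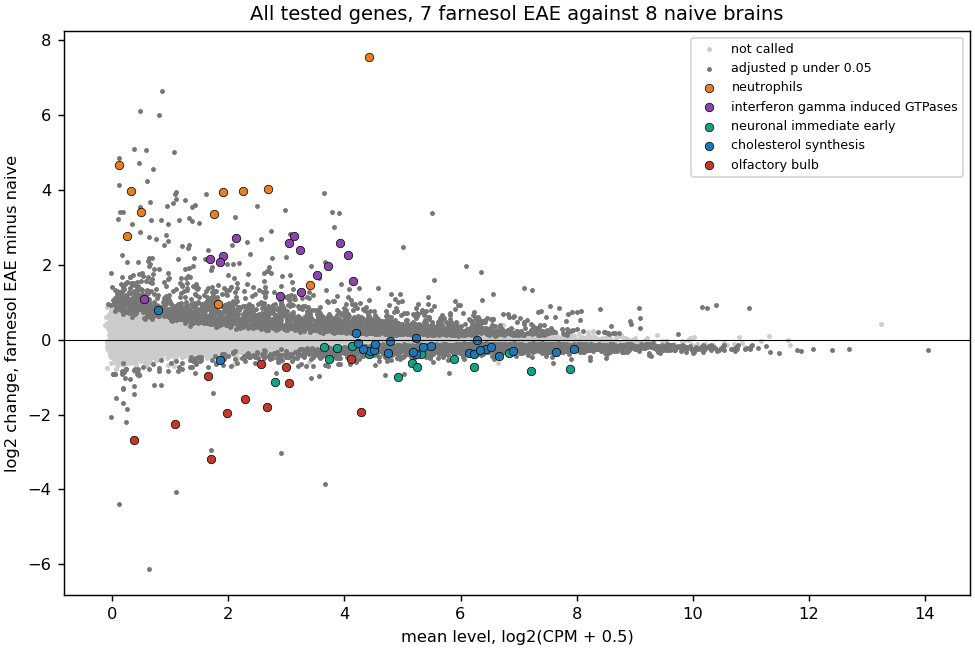
Log2 change, farnesol EAE minus naive, against mean level in log2(CPM + 0.5) for the 17283 tested genes (light grey, not called; dark grey, adjusted p under 0.05), with the tested members of 5 gene lists in colour. The 386 rises beyond 2-fold outnumber the 31 falls, and the neutrophil and GTPase genes lie high while the olfactory bulb genes lie low. Fitted changes of genes near 0 CPM in 1 group are imprecise.

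The promoters of 3 genes from groups that moved together are shown first, so that the sequences can be read beside the levels. They are the 250 bases before the RefSeq start of each gene on its own strand (GRCm38.p6), with motif matches in capitals: Gbp2, a GTPase gene (chr3:142620413-142620662, plus strand), Nr4a3, an activity-regulated receptor gene (chr4:48045055-48045304, plus strand), and Lcn2, the largest rise among the genes named (chr2:32387740-32387989, minus strand).
Gbp2: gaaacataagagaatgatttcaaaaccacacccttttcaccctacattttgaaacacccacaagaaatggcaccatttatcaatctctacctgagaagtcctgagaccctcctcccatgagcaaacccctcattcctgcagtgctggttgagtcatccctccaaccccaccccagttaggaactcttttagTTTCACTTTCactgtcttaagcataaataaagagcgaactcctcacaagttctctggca
Nr4a3: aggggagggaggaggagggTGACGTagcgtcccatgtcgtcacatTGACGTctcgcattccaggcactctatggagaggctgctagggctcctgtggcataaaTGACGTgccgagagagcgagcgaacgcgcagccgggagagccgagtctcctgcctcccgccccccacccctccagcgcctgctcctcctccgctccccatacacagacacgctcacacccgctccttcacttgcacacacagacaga
Lcn2: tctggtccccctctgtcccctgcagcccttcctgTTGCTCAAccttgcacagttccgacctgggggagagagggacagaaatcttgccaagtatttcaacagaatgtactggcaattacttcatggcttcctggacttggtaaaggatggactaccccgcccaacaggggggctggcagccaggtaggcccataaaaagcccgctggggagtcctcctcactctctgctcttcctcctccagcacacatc
The capitals mark GAAANNGAAA in Gbp2, a spacing bound by interferon regulatory factors, TGACGT in Nr4a3, the core of the cyclic AMP response element, and TTGCNNAA in Lcn2, a core bound by C/EBP factors, each on either strand. The GENCODE gene bounds begin upstream of these RefSeq starts, so part of each window lies inside the annotated gene. Over windows of 250 bases before to 50 after each RefSeq start, GAAANNGAAA was present in 9 of 11 windows of the interferon gamma induced GTPase list against 3.44% of 32851 windows of all genes. TGACGT was present in 9 of 21 windows of the immediate early list, which does not hold Nr4a3, against 7.51%, and TTGCNNAA in 7 of 15 windows of the neutrophil list against 10.8%. The windows covered 10 of 17, 11 of 15 and 14 of 15 listed genes. A match is a description of these letters and not evidence that a factor binds.

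Genes of activated endothelium rose. Of 13 listed endothelial activation genes 12 were tested, 11 rose and 0 fell, with a median log2 change of 1.11 and no overlap of the groups in 8. Vwf, the von Willebrand factor of vessel walls and platelets, measured 18.4 to 27.3 CPM (median 22.98) in naive and 64.1 to 84.2 CPM (median 68.9) in farnesol EAE brains. Each farnesol library lay above every naive one, a rise of 1.61 ± 0.07 (adjusted p = 1.60e-12). Lrg1, a secreted glycoprotein of activated vessels, measured 0.679 to 1.59 CPM (median 1.27) in naive and 10.1 to 16.1 CPM (median 13.7) in farnesol EAE (3.46 ± 0.15, adjusted p = 1.60e-12). The narrow farnesol range, with no library near the naive range, held for both genes. Icam1, an adhesion receptor for leukocyte integrins, rose by 2.19 ± 0.16 (1.75 to 2.57 CPM in naive, 6.72 to 13.4 CPM in farnesol brains). Selp, the P-selectin on which leukocytes roll, measured 0 to 0.212 CPM in naive and 1.29 to 4.18 CPM in farnesol brains (6.00 ± 0.49). Sele, the matching E-selectin, had 3 counts over the 8 naive libraries and measured 1.55 to 3.53 CPM (median 2.51) in the farnesol ones. That list also holds Cd74, which is described with antigen presentation below.

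Genes of the blood-brain barrier moved little and in both directions. Of 14 listed and tested genes 5 rose and 3 fell, with a median log2 change of 0.11. Slc2a1, the glucose transporter of brain endothelium, rose by 0.47 ± 0.07 (93.5 to 125 CPM in naive, 127 to 175 CPM in farnesol brains, adjusted p = 3.23e-05). Tfrc, the transferrin receptor, rose by 0.31 ± 0.06, Slc7a5, a large neutral amino acid transporter, by 0.21 ± 0.05 and Esam, a junctional adhesion molecule, by 0.25 ± 0.06. The fifth rise was Lsr, of tricellular junctions, and the falls were Slco1c1, a thyroxine carrier, Cldn5, the main claudin of brain vessels, and Tjp1, a junction scaffold, at -0.21, -0.22 and -0.14. Without farnesol replicate 9 or 10 only 1 of these falls was called.

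Neutrophil genes rose in every farnesol library. Of 15 listed genes 11 were tested, and all 11 of these rose with no overlap between the groups (median log2 change 3.94). The remaining 4 (Padi4, Ly6g, Elane and Mpo) were too low to test. The 15 genes summed to only 8.95 to 12.2 CPM in naive libraries. A gene near 0 there could pass the count filter through the farnesol libraries alone, so the count of rises and the median partly follow from the filter. The same holds for such genes in the other lists that rose. Ly6g, which defines the lineage in blood, had at most 4 counts in any farnesol library, and Elane at most 9. Lcn2 (lipocalin 2, an iron-binding acute phase protein that is also a gene of reactive astrocytes and vessels) measured 0 to 0.583 CPM (median 0.153) in naive and 28.5 to 63.7 CPM (median 33.7) in farnesol EAE brains. Its rise of 7.56 ± 0.30 (adjusted p = 4.55e-13) was the largest of the named genes, and the lowest farnesol library lay far above the highest naive one. S100a9, a calgranulin of neutrophils and monocytes, measured 0.427 to 1.11 CPM (median 0.637) in naive and 7.79 to 14.0 CPM (median 11.5) in farnesol brains (4.02 ± 0.18, adjusted p = 1.63e-12). Its partner S100a8 rose by 3.97 ± 0.31 and the granule protein gene Ngp by 3.37 ± 0.30. Across the 7 farnesol libraries the summed level of the neutrophil list differed 1.96-fold between highest (replicate 4) and lowest (replicate 10), against 1.37-fold across the naive ones. These farnesol sums, 67.1 to 131 CPM, include Lcn2 at 28.5 to 63.7 CPM, so they do not measure neutrophils alone.

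Monocyte and macrophage genes rose with them. Of 16 listed genes 15 were tested, 13 rose and 0 fell (median log2 change 2.16, no overlap in 11). Ccr2, the chemokine receptor of inflammatory monocytes, measured 0.318 to 0.583 CPM (median 0.392) in naive and 2.45 to 5.61 CPM (median 3.67) in farnesol brains (3.17 ± 0.21, adjusted p = 2.73e-09). Plac8, abundant in monocytes and granulocytes, rose by 5.01 ± 0.43 (0 to 0.265 CPM in naive, 1.76 to 5.21 CPM in farnesol brains). Lyz2, the lysozyme of myeloid cells, rose by 2.48 ± 0.22 and the lipopolysaccharide co-receptor gene Cd14 by 1.75 ± 0.17. Lilrb4a, a myeloid receptor that restrains activation, rose by 4.73 ± 0.47 (0 to 0.212 CPM in naive, 0.579 to 2.63 CPM in farnesol brains). Its near-copy Lilr4b had at most 3 counts in any naive library and measured 0.966 to 2.26 CPM (median 1.603) in farnesol ones; reads may be divided between such similar genes, so their separate levels are uncertain. Haemoglobin and other red cell genes did not rise with the leukocyte genes: of 6 tested erythroid genes 0 rose, and their summed level was lowest in farnesol replicate 9 (67.8 CPM, against 197 to 419 in naive brains).

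Chemokine genes were led by those that attract myeloid cells. Of 16 listed 8 were tested, 6 rose and 1 fell; 11 rose with no count filter, 10 in the fit of all 36 libraries and 2 when 1 CPM was required in 7 libraries. Ccl8, a monocyte chemoattractant, measured 0 to 0.180 CPM (median 0.0515) in naive and 0.569 to 3.58 CPM (median 1.58) in farnesol brains (5.06 ± 0.53, adjusted p = 6.99e-07). Ccl12, a mouse ligand of Ccr2, rose by 3.57 ± 0.40, and the interferon-induced Cxcl10 by 3.90 ± 0.52 (0.0895 to 0.767 CPM in naive, 1.16 to 11.2 CPM in farnesol brains). Cxcl1, which attracts neutrophils, had at most 2 counts in any naive library and reached 0.573 to 1.69 CPM (median 1.18) in the farnesol ones. Ccl5, a ligand of T cell and monocyte receptors, rose by 3.21 ± 0.48. The one that fell was Cx3cl1, the neuronal fractalkine, which fell by 0.43 on the log2 scale and is named after its value was seen. Summed over the 16 genes, the list went down: all 7 farnesol libraries lay below every naive one, at 0.673 to 0.892 of the naive median.

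Lymphocyte transcripts were scarce in both groups. Of 20 listed T cell genes 9 were tested, 1 rose (Foxp3) and 1 fell (Tbx21), and the CD3 chain genes and Cd8a did not reach the count filter. Cd3e, a chain of the T cell receptor complex, had 4 to 28 counts in the farnesol libraries and 1 to 12 in the naive ones. Foxp3, the factor of regulatory T cells, rose by 1.67 ± 0.26 (0.106 to 0.533 CPM in naive, 0.827 to 1.37 CPM in farnesol brains, adjusted p = 7.64e-05). Il2ra, a marker of activated T cells, measured 0.69 ± 0.37 (adjusted p = 0.170). Tbx21, a factor of T helper 1 cells that olfactory bulb projection neurons also express, fell together with the olfactory genes described below. Of 3 tested B cell genes, from 9 listed, 0 were called in the main fit. The count of rises was 1 with limma-voom, with all 10 farnesol libraries and with the rRNA gene as a covariate. The T cell count depended on the filter: 8 genes of the list rose with no count filter and 7 in the fit of all 36 libraries, which also tests lower counts. Summed over the 20 T cell genes, naive libraries ran from 19.7 to 24.7 CPM and farnesol libraries from 21.2 to 33.4 CPM, with 6 of the 7 farnesol libraries above every naive one. The 10 genes of natural killer and cytotoxic cells, Ccl5 among them, summed to 0.601 to 2.07 CPM in naive and 2.10 to 9.22 CPM in farnesol brains, without overlap.

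Interferon-induced and antigen-presentation genes rose as groups. Of 17 listed interferon gamma induced GTPase genes 15 were tested and these 15 rose, with a median log2 change of 2.15 and no overlap in 10. Gbp2, a guanylate-binding protein that acts against intracellular microbes and whose promoter is printed above, measured 3.50 to 5.22 CPM (median 4.17) in naive and 8.31 to 72.7 CPM (median 15.98) in farnesol brains (2.58 ± 0.36, adjusted p = 2.77e-05). Every farnesol library lay above every naive one, but the farnesol libraries themselves spanned a wide range. Iigp1 rose by 2.78 ± 0.38, Tgtp2 by 2.71 ± 0.39 and Gbp5 by 2.39 ± 0.36; these encode GTPases of the same response, and Tgtp2 has a near-identical copy, Tgtp1, so its own level is uncertain. Of 20 tested type I interferon stimulated genes, from 21 listed, 19 rose and 0 fell (median 1.32). Among them Stat2, which carries the type I interferon signal, rose by 0.65 ± 0.08, Oas2, a sensor of double-stranded RNA, by 1.66 ± 0.21, Zbp1, a sensor of Z-form nucleic acid, by 3.55 ± 0.46 and Xaf1 by 1.15 ± 0.15.

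MHC class II genes also spread widely among the farnesol libraries. Of 11 listed genes 8 were tested, 7 rose and 0 fell (median 2.16). Cd74, the invariant chain that guides class II molecules, measured 5.43 to 9.65 CPM (median 7.92) in naive and 27.8 to 179.9 CPM (median 58.9) in farnesol brains (3.40 ± 0.33, adjusted p = 2.78e-07). The highest farnesol value, 179.9 CPM in replicate 9, and the lowest, 27.8 CPM in replicate 8, both exceeded the naive range. H2-Ab1 rose by 3.38 ± 0.34, H2-Aa by 3.41 ± 0.36 and H2-Eb1 by 3.03 ± 0.32; these are the chains of the peptide-presenting dimers. In the class I and immunoproteasome list 18 genes were tested, 15 rose and 0 fell (median 1.38, no overlap in 10). H2-Q6, a non-classical class I gene, measured 0.848 to 2.17 CPM (median 1.42) in naive and 4.31 to 14.7 CPM (median 11.6) in farnesol brains (2.69 ± 0.26, adjusted p = 2.60e-07). Nlrc5, the transactivator of class I genes, rose by 3.58 ± 0.36, the classical class I gene H2-K1 by 1.82 ± 0.22 and H2-Q7 by 2.90 ± 0.36. H2-Q6 and H2-Q7 are near-identical copies among which reads may be divided.

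**Figure D2:**
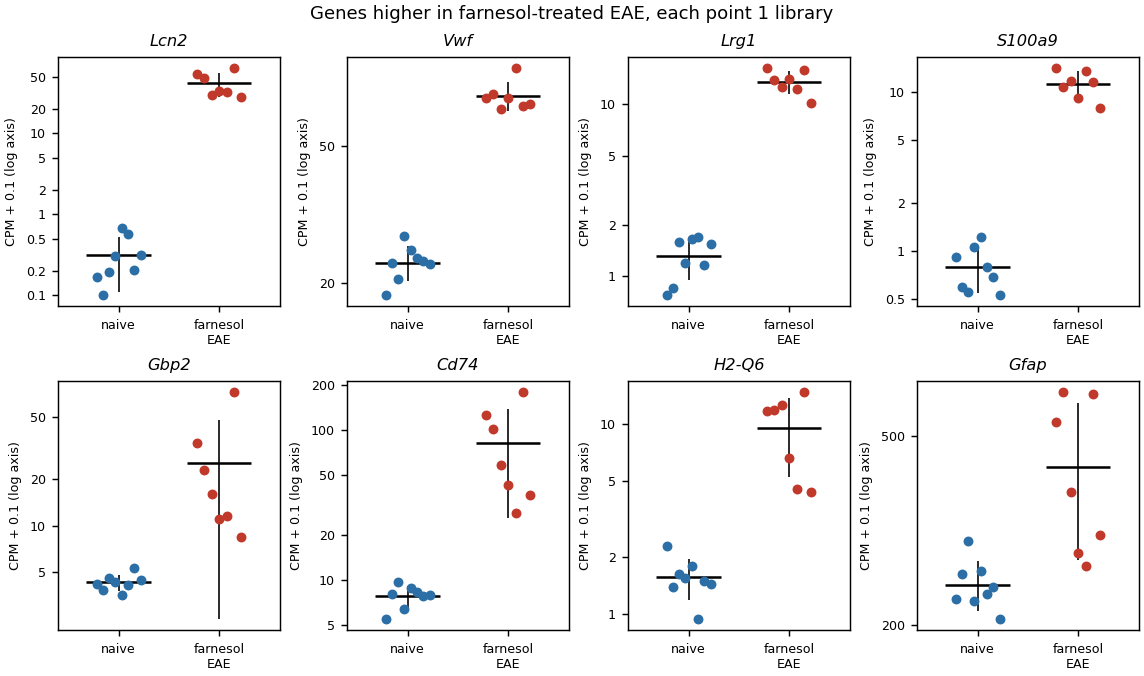
Levels of 8 rising genes, 1 point per library (8 naive in blue, 7 farnesol EAE in red), on log axes of CPM + 0.1, with the mean as a horizontal line and the SD as a vertical line. Vwf, Lrg1 and S100a9 keep a narrow farnesol range, while Gbp2, Cd74 and Gfap spread widely and only Gfap overlaps the naive range.

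The farnesol libraries differed from one another more in interferon and MHC genes than in vascular genes. The summed level of the GTPase list differed 6.75-fold between the highest farnesol library (replicate 9) and the lowest (replicate 10), against 1.30-fold across naive libraries. For MHC class II the ratio was 5.19 (replicate 9 over replicate 8) against 1.49. For endothelial activation it was 1.58 against 1.17. Replicates 9, 4 and 5 were highest and replicates 7, 8 and 10 lowest for both the GTPase and the class II list. Replicate 9 also had the lowest level of CT010467.1 and replicate 10 the highest, but the other libraries did not keep this order. In CPM of the column total, replicates 9, 4 and 5 had 5157, 13810 and 8706. Replicates 7, 8 and 10 had 12275, 8791 and 17624. The part of this gene's level in the spread was not tested. Clinical scores of the animals are not in the labels, so the spread was not set against disease severity.

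**Figure D3:**
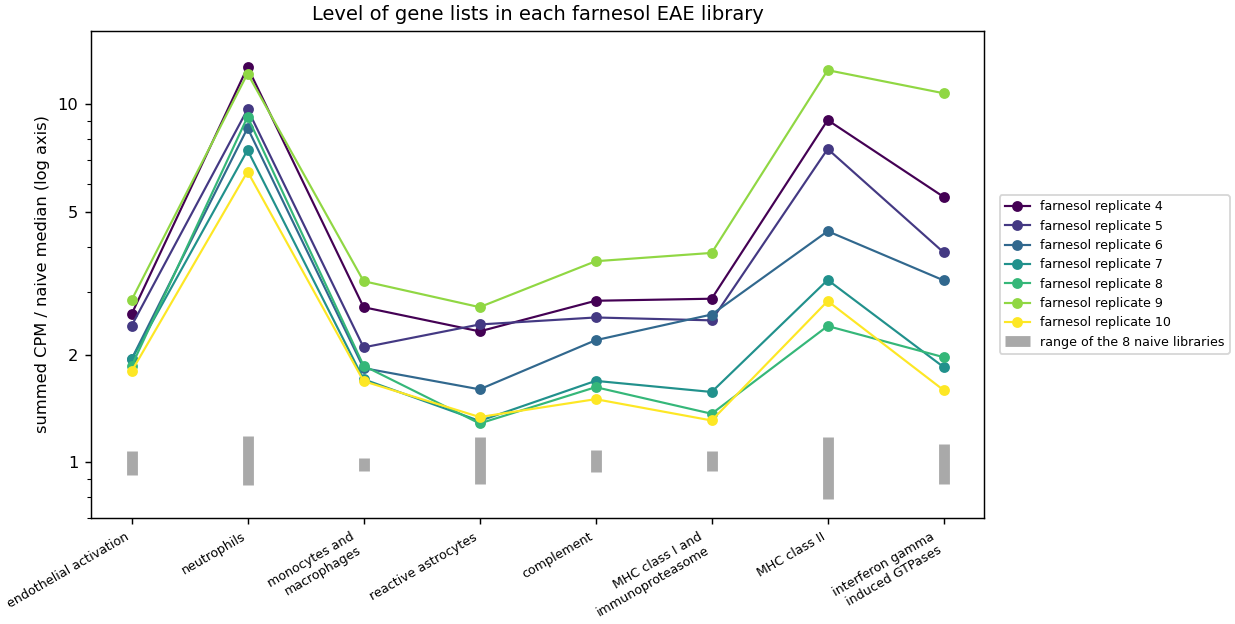
Summed level of 8 gene lists in each farnesol EAE library, divided by the naive median (log axis), with 1 line per library and grey bars for the range of the 8 naive libraries. All 7 lines lie above the naive range for each list, and they fan out from endothelial and neutrophil genes to MHC class II and GTPase genes, with replicate 9 highest there.

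Complement genes rose at nearly every step of the cascade that was measured. Of 16 listed genes 15 were tested, 14 rose and 0 fell (median 1.09, no overlap in 9). C1s1, a protease of the first component, measured 0.320 to 1.11 CPM (median 0.730) in naive and 4.76 to 8.82 CPM (median 7.08) in farnesol brains (3.27 ± 0.21, adjusted p = 1.16e-09). The other C1 protease gene tested, C1ra, rose by 2.04 ± 0.21, and C3, the central component, by 3.93 ± 0.38 (0.492 to 3.05 CPM in naive, 9.87 to 49.1 CPM in farnesol brains).

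Reactive astrocyte genes rose while several genes of resting astrocytes fell slightly. In the reactive list 19 of 20 genes were tested, 15 rose and 0 fell (median 0.82, no overlap in 8), and the list shares Lcn2, Gbp2 and Cxcl10 with those above. Gfap, the intermediate filament of astrocytes, measured 207 to 301 CPM (median 237) in naive and 266 to 619 CPM (median 381) in farnesol brains (0.82 ± 0.16, adjusted p = 6.14e-04), and the groups overlapped. Steap4, a metalloreductase induced by inflammation, rose by 2.45 ± 0.23, the ferroxidase ceruloplasmin gene Cp by 1.08 ± 0.10 and Osmr, the receptor chain for oncostatin M, by 1.03 ± 0.12. Of 15 listed and tested homeostatic genes 0 rose and 7 fell (median -0.20). Their farnesol sums, 0.837 to 0.923 of the naive median, were close to those of 14 housekeeping genes (0.824 to 0.941). Slc1a2, the main glutamate transporter, measured 2437 to 3182 CPM (median 2854) in naive and 2007 to 2438 CPM (median 2269.9) in farnesol brains (-0.33 ± 0.05, adjusted p = 1.81e-04). Mlc1, a membrane protein of astrocyte endfeet, fell by 0.26 ± 0.06, Slc1a3, the other astrocytic glutamate transporter, by 0.24 ± 0.06, and Gpc5 by 0.23 ± 0.05.

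Genes of activated microglia and macrophages rose, and those of homeostatic microglia split. Bulk counts do not tell the activated microglia from the macrophages. Of 15 listed activation genes 14 were tested, 10 rose and 0 fell (median 0.70). Ch25h, which makes 25-hydroxycholesterol, rose by 3.64 ± 0.25 (0.0902 to 0.403 CPM in naive, 2.05 to 4.31 CPM in farnesol brains). Itgax, the CD11c integrin, rose by 3.75 ± 0.43, Clec7a, the lectin dectin 1, by 3.26 ± 0.43 and Tyrobp, an adaptor of myeloid receptors, by 0.81 ± 0.13. Aif1, the IBA1 protein of microglia and macrophages, measured 2.70 to 4.66 CPM (median 4.26) in naive and 4.33 to 10.6 CPM (median 6.76) in farnesol brains (0.84 ± 0.19, adjusted p = 0.00243), with overlap of the groups and no call in a fit of all 36 libraries (adjusted p = 0.0714). Of 12 listed and tested homeostatic genes 3 rose and 3 fell, and in the fit of all 36 libraries 0 rose; the activation count there was 5. P2ry12, the purinergic receptor of resting microglia, fell by 0.46 ± 0.09, Gpr34 by 0.45 ± 0.10 and the identity factor Sall1 by 0.38 ± 0.10. Among the 3 that rose, Siglech rose by 0.31 ± 0.10 and Olfml3 by 0.35.

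Cytokine signalling genes rose at the receptor and effector levels. Of 21 listed interleukin 1 and inflammasome genes 17 were tested, 13 rose and 0 fell (median 0.88), or 8 rose when 1 CPM was required in 7 libraries. Il1r1, the signalling receptor, rose by 1.05 ± 0.13 (3.81 to 6.09 CPM in naive, 7.55 to 13.1 CPM in farnesol brains), its ligand Il1b by 3.55 ± 0.46 and the inflammatory caspase gene Casp4 by 2.87 ± 0.38. Of 14 tested genes of interleukin 6 and STAT3 signalling, from 16 listed, 11 rose and 1 fell, while Il6 and Osm themselves were too low to test. Bcl3, a nuclear regulator of NF-kappa-B, rose by 2.16 ± 0.26, Cebpd, an acute phase transcription factor, by 1.09 ± 0.14 and Fgl2, a prothrombinase and immune regulator, by 1.28 ± 0.19. The 1 that fell, Junb, named after its value was seen, is also an immediate early gene and fell with that group.

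More genes that respond to glucocorticoids rose than fell. All 18 listed genes were tested, 10 rose and 3 fell (median 0.50), beside 14.9% called higher and 13.3% called lower over all genes tested. The falls were the receptor gene Nr3c1, Dusp1 and Per1, of which 1 was called in the fit of all 36 libraries, with the rRNA gene as a covariate, or without farnesol replicate 4, 6 or 8 or naive replicate 6 or 7. Hif3a rose by 1.73 ± 0.21 (2.58 to 4.61 CPM in naive, 6.56 to 19.1 CPM in farnesol brains, adjusted p = 7.03e-06), and Arrdc2 by 0.69 ± 0.10. Plin4, a lipid droplet protein, measured 1.43 to 2.38 CPM (median 1.99) in naive and 3.67 to 30.5 CPM (median 9.53) in farnesol brains (2.83 ± 0.39, adjusted p = 2.16e-05). Its farnesol values were uneven, near 30 CPM in replicates 5 and 9. Among clock genes, of which several also respond to glucocorticoids, 3 of 16 rose and 4 fell, beside the same shares of all genes. Per3 rose by 0.60 ± 0.06, Per2 by 0.33 ± 0.08 and Ciart by 0.41 ± 0.09. Nfil3 fell by 0.50 ± 0.09, with Arntl, Nr1d1 and Per1 below it in size. Without farnesol replicate 4, 5 or 8 or naive replicate 6, 2 of the 4 clock falls were called. The labels give no hour of sampling.

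Cholesterol synthesis, the pathway whose intermediate farnesol resembles, was lower at most steps. All 25 listed genes were tested, 17 fell and 2 rose, with a median log2 change of -0.25 and no overlap of the groups in 9. The changes were small beside those of the immune genes. In the mevalonate steps, Hmgcs1, an early synthase of the pathway, measured 202 to 238 CPM (median 224) in naive and 152 to 195 CPM (median 174) in farnesol brains (-0.34 ± 0.05, adjusted p = 6.38e-05). Mvk, the mevalonate kinase, fell by 0.26 ± 0.08, Mvd, the decarboxylase, by 0.31 ± 0.08, Idi1, the isomerase, by 0.25 ± 0.08 and Acat2 by 0.20 ± 0.05, whereas Pmvk measured -0.04 ± 0.07 and was not called.

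Past farnesyl diphosphate, the enzymes committed to sterols fell. Fdft1, squalene synthase, fell by 0.25 ± 0.05. Sqle, squalene epoxidase, measured 74.2 to 84.4 CPM (median 78.7) in naive and 56.6 to 64.0 CPM (median 62.2) in farnesol brains (-0.36 ± 0.04, adjusted p = 1.89e-06), with each farnesol library below every naive one and a smaller p than any other member of the pathway. Of the later sterol enzymes Cyp51 fell by 0.38 ± 0.05, Dhcr7 by 0.38 ± 0.05, Hsd17b7 by 0.36 ± 0.05 and Msmo1 by 0.27 ± 0.05. Lss, Ebp, Sc5d and Nsdhl were between -0.13 and 0.04 and were not called, and Tm7sf2 rose by 0.19 ± 0.07. Srebf2, the transcription factor of this pathway, fell by 0.25 ± 0.05, as did its targets Insig1 by 0.20 ± 0.05 and Stard4 by 0.17 ± 0.06. The summed level of the list lay below every naive library in all 7 farnesol libraries, at 0.778 to 0.873 of the naive median. This was not particular to the pathway. The sum of 14 housekeeping genes, of which 5 fell and 3 rose, also lay below every naive library in all 7 (0.824 to 0.941). So did that of the cytosolic heat shock genes (0.822 to 0.866), whereas that of the cytosolic ribosomal protein genes did so in 3 of the 7.

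Fdps, the synthase that makes farnesyl diphosphate, went the other way but from very few reads. It measured 0.403 to 1.64 CPM (median 0.902) in naive and 0.937 to 2.83 CPM (median 1.45) in farnesol brains (0.79 ± 0.28, adjusted p = 0.0416), and the groups overlapped. Without farnesol replicate 10, the highest at 2.83 CPM, the change was 0.59 (adjusted p = 0.119), and leaving out any of 9 other libraries also ended the call. Near-identical copies of this gene exist in the mouse genome, among which reads may be divided, so its level is uncertain. The branch that uses farnesyl diphosphate for prenylation, dolichol and ubiquinone changed little. Of 15 listed and tested genes 1 rose, 1 fell and 13 were not called, with a median log2 change of 0.0070. The count of falls was 2 under RLE scaling, DESeq2, limma-voom, the fit of all 36 libraries and without farnesol replicate 10 or naive replicate 4, and 3 with all 10 farnesol libraries; 2 rose with the rRNA gene as a covariate or without naive replicate 1. Pdss1, which makes the side chain of ubiquinone, rose by 0.36 ± 0.11, and Pcyox1, which breaks down prenylcysteine, fell by 0.15 ± 0.04. The farnesyltransferase genes Fnta (0.0062 ± 0.05) and Fntb (-0.12 ± 0.05) and the geranylgeranyl synthase gene Ggps1 (0.0070 ± 0.05) were not called.

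Some genes of fatty acid synthesis fell, while PPAR genes were called no more often than all genes. Of 15 listed and tested fatty acid synthesis genes 6 fell (10 with all 10 farnesol libraries) and 0 rose (median -0.13), among them the desaturase genes Fads2 (-0.26 ± 0.05), Fads1 (-0.21 ± 0.05) and Scd2 (-0.26 ± 0.05) and the synthase gene Fasn (-0.25 ± 0.06). Farnesol is known as an activator of PPAR receptors. Of 17 listed and tested PPAR targets and coactivators 1 rose and 3 fell (4 of 17 called, against 28.2% of all genes tested). Among the falls, Pdk4, which spares glucose, fell by 0.32 ± 0.10 (9.80 to 15.1 CPM in naive, 7.89 to 11.9 CPM in farnesol brains). The uncoupling protein gene Ucp2, which leukocytes also express, rose by 0.30 ± 0.10. Ppargc1a, a coactivator of mitochondrial genes, measured 56.2 to 68.9 CPM (median 64.1) in naive and 53.3 to 74.1 CPM (median 62.8) in farnesol brains (-0.05 ± 0.06, adjusted p = 0.599). Ppara (-0.33 ± 0.13), Pparg (-0.06 ± 0.15), Ppard (-0.05 ± 0.07), Cpt1a (-0.15 ± 0.07) and Angptl4 (0.04 ± 0.13) were not called. With all 10 farnesol libraries 5 genes of the list fell, and Ppara (adjusted p = 0.0240) and Cpt1a (adjusted p = 0.0445) passed. Ppara also passed without naive replicate 7 (adjusted p = 0.0372). The rise of Ucp2 lost its call in the fit of all 36 libraries, with limma-voom and without any of 7 single libraries.

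**Figure D4:**
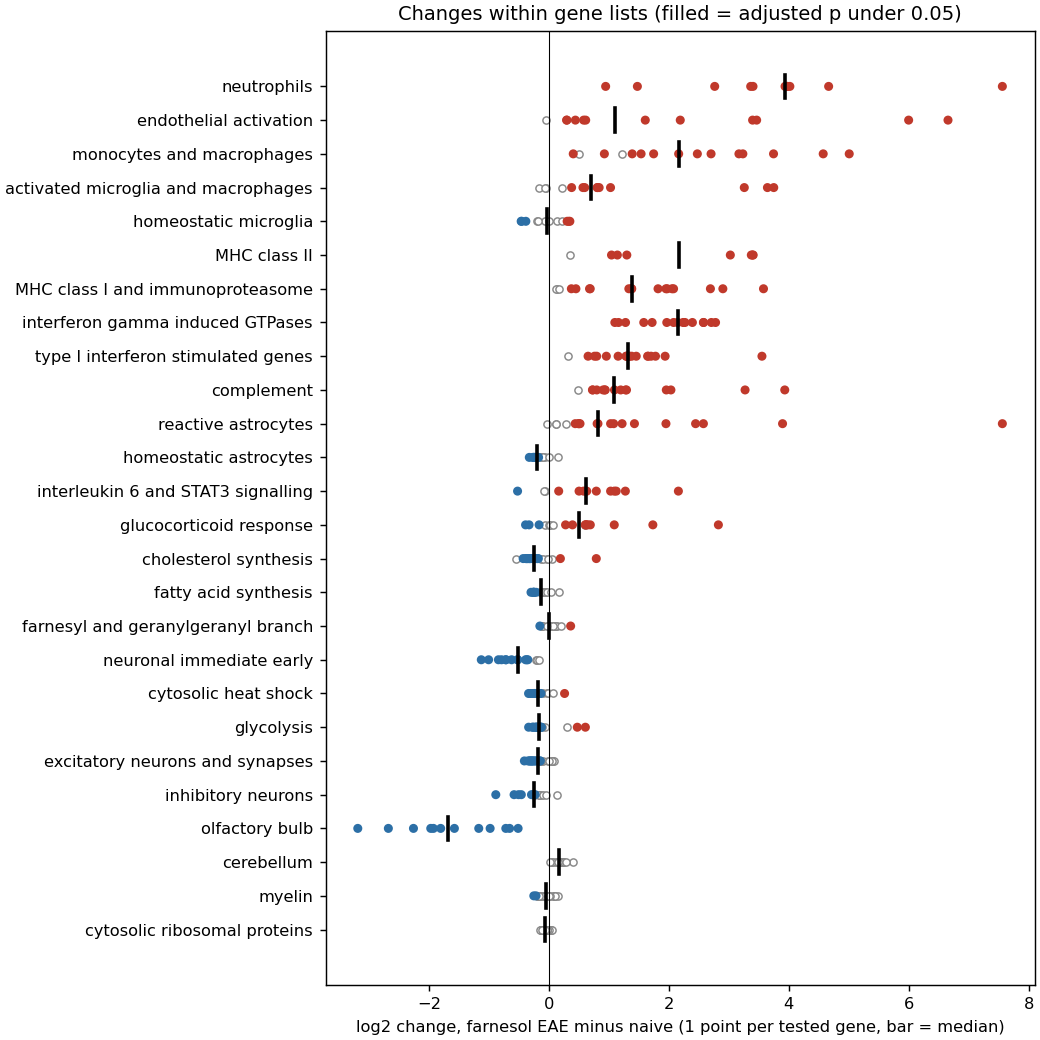
Log2 change, farnesol EAE minus naive, of each tested member of 26 gene lists (filled red, called higher; filled blue, called lower; open, not called), with the list median as a black bar. Immune lists lie right of 0, and the cholesterol, immediate early, synaptic and olfactory lists lie left of it. Ribosomal protein genes centre near 0 (median -0.06) and cerebellar genes have a median of 0.17, with none called in either list.

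Activity-regulated genes of neurons were lower. Of 15 listed and tested immediate early genes 12 fell and 0 rose (median -0.52, no overlap in 3). Egr1, a transcription factor induced by neuronal firing, measured 196 to 363 CPM (median 308) in naive and 147 to 196 CPM (median 175) in farnesol brains (-0.79 ± 0.10, adjusted p = 7.24e-06). Egr2 fell by 1.13 ± 0.16, Nr4a1 by 0.72 ± 0.10 and Fosl2 by 0.62 ± 0.08. Fos, the usual marker of recent activity (27.8 to 46.0 against 12.4 to 32.5 CPM, -1.004 ± 0.17), and Arc, a synaptic plasticity gene (130.4 to 216 against 70.9 to 152 CPM, -0.84 ± 0.14), are named after their values were seen. Nr4a3, of the same receptor family as Nr4a1 and not in the list, measured 27.8 to 50.6 CPM (median 42.1) in naive and 21.6 to 24.6 CPM (median 21.8) in farnesol brains (-0.91 ± 0.09, adjusted p = 6.99e-07). Its farnesol values were almost the same in all 7 libraries, below every naive one. The labels say nothing of handling before death or of the time to extraction in either group.

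Many synaptic and interneuron genes fell, mostly by small amounts. Of 22 listed and tested excitatory neuron and synapse genes 13 fell and 0 rose (median -0.17, no overlap in 5). In the farnesol libraries the sums of the excitatory and inhibitory lists were 0.734 to 0.950 and 0.809 to 0.889 of the naive median. That of the 14 housekeeping genes was 0.824 to 0.941, so lower sums were not particular to neuronal genes. Syn1, a protein of synaptic vesicles, measured 611 to 763 CPM (median 692) in naive and 443 to 601 CPM (median 519) in farnesol brains (-0.41 ± 0.05, adjusted p = 1.28e-05). The vesicle protein genes Vamp2 (-0.28 ± 0.04), Syp (-0.26 ± 0.05) and Syt1 (-0.32 ± 0.06) fell with it. Of 15 listed and tested inhibitory neuron genes 7 fell and 0 rose; the GABA synthases Gad1 (-0.29 ± 0.04) and Gad2 (-0.26 ± 0.05), the peptide gene Cck (-0.50 ± 0.09) and the interneuron factor Dlx2 (-0.88 ± 0.17) were among them. Pcdh20, a protocadherin of cortical neurons, fell by 0.51 ± 0.06 (33.4 to 37.2 CPM in naive, 21.8 to 29.0 CPM in farnesol brains), and Ncan, a proteoglycan of the extracellular matrix around neurons, by 0.62 ± 0.07 (195 to 251 CPM in naive, 112 to 179.8 CPM in farnesol brains). Striatal genes summed to 529.6 CPM in farnesol replicate 5 against 919.8 or more in each naive library, and the part of this in the synaptic changes was not tested. Olfactory bulb genes were lower in the farnesol libraries, as described below. The part of this in the falls of interneuron genes was not tested either.

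Heat shock, glycolytic and respiratory genes were lower by similar small amounts. The farnesol sums of the glycolysis list were 0.822 to 0.931 of the naive median. Those of the 14 housekeeping genes, which share Gapdh and Pgk1 with it, were 0.824 to 0.941. Of 17 listed and tested cytosolic heat shock genes 10 fell and 1, the factor gene Hsf1, rose (median -0.19, no overlap in 7). Hsph1, a co-chaperone of the HSP110 family, measured 278 to 328 CPM (median 310.4) in naive and 233 to 259 CPM (median 244) in farnesol brains (-0.34 ± 0.04, adjusted p = 3.24e-06). Hsp90ab1 fell by 0.24 ± 0.04, Hsp90aa1 by 0.24 ± 0.04 and the mitochondrial chaperonin gene Hspd1 by 0.19 ± 0.03. Of 21 listed and tested glycolysis genes 16 fell and 2, Slc2a1 and Hk2, rose (median -0.16); the lactate carrier gene Slc16a1 fell by 0.34 ± 0.06, Eno1 by 0.27 ± 0.05 and Hk1 by 0.27 ± 0.05. Nuclear genes of the respiratory chain fell in 13 of 25 listed and tested and rose in 0. Of 13 listed and tested mitochondrially encoded genes 8 fell and 0 rose, led by mt-Nd4 (-0.30 ± 0.06) and mt-Cytb (-0.26 ± 0.05).

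The mitochondrial share of all counts was lower in farnesol EAE, 4.49 ± 0.27% (SD, n = 7) against 5.07 ± 0.45% in naive brains (n = 8). The difference of -0.583 percentage points had a two-sided exact permutation p of 0.00497 over 6435 arrangements, and it was -0.573 when the rRNA gene was left out of the total (exact permutation p = 0.00668). The part of this lower share in the falls of the nuclear metabolic genes was not tested.

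**Figure D5:**
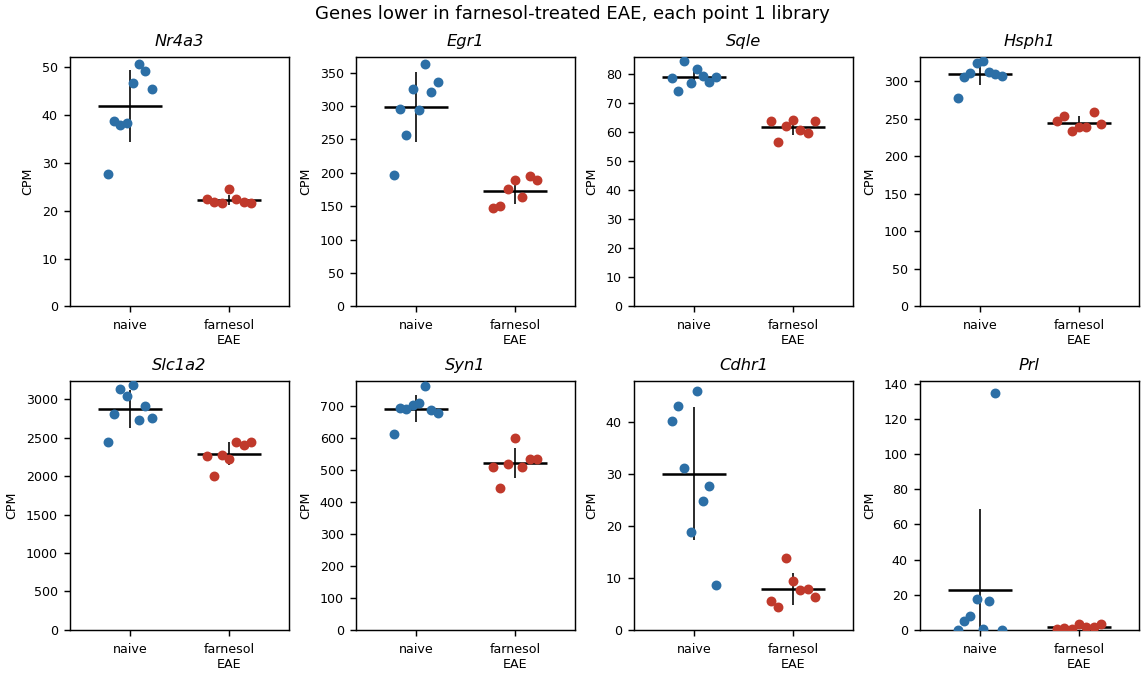
Levels in CPM of 8 falling genes on axes from 0, 1 point per library (8 naive in blue, 7 farnesol EAE in red), with the mean as a horizontal line and the SD as a vertical line. Nr4a3, Sqle, Hsph1 and Syn1 separate the groups, whereas Slc1a2 and Cdhr1 overlap and Prl is set by a few naive libraries.

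Genes of the olfactory bulb and the pituitary were among the largest falls. All 12 listed olfactory bulb genes were tested and fell, with a median log2 change of -1.69 and overlap of the groups in all 12. Cdhr1, a cadherin of mitral and tufted cells, measured 8.58 to 45.9 CPM (median 29.5) in naive and 4.37 to 13.9 CPM (median 7.78) in farnesol brains (-1.92 ± 0.28, adjusted p = 3.76e-05). Omp, the olfactory marker protein of sensory neurons whose axons end in the bulb, measured 0.693 to 12.8 CPM (median 4.18) and 0.221 to 0.944 CPM (median 0.585) in the same order (-3.18 ± 0.50). S100a5, which olfactory sensory neurons express, gave the largest fall of the named genes (-6.13 ± 0.76, 0.0533 to 3.58 CPM in naive and 0 to 0.103 CPM in farnesol brains). Being near 0 in the farnesol libraries, S100a5 passed the count filter through the naive ones alone, so its size is uncertain. It gave a value in 17 of 25 alternatives, from -7.05 to -3.47. Scgn, of bulb interneurons, fell by 2.26 ± 0.35 and Sp8 by 1.80 ± 0.29. Summed over the list, naive libraries ran from 48.8 to 149.5 CPM and farnesol libraries from 40.1 to 63.0 CPM. Naive replicate 8 was the lowest of its group, at 48.8 CPM, and lay above 6 of the 7 farnesol libraries and below the remaining one.

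Prl, the pituitary hormone prolactin, measured 0 to 135 CPM (median 6.32) in naive and 0.344 to 3.42 CPM (median 1.403) in farnesol brains (-3.85 ± 1.03, adjusted p = 0.00810), and Gh, growth hormone, 0 to 62.5 CPM (median 6.21) and 0 to 3.15 CPM (median 1.93) (-3.03 ± 0.92). Both were near 0 in some naive libraries and high in others, so the groups overlapped. Without naive replicate 7, the highest in both, Prl measured -2.10 and Gh -1.81 (adjusted p = 0.0998 for Gh). With limma-voom Prl measured -1.03 (adjusted p = 0.690) and Gh -1.27 (adjusted p = 0.593), and in the fit of all 36 libraries neither was called (adjusted p = 0.135 and 0.270); Gh was not called with DESeq2 either (adjusted p = 0.0536). The further large falls, Klhl30 (-4.40 ± 0.62), Ms4a15 (-4.07 ± 0.63), Frmd7 (-2.94 ± 0.46) and Tbx21 (-2.68 ± 0.58), came from genes at or below 9.27 CPM in each naive library. Klhl30, at most 0.193 CPM in the farnesol libraries, also passed the filter through the naive ones alone. It gave a value in 17 of 25 alternatives, from -5.10 to -2.27. How much bulb and pituitary each dissection held and how much RNA those structures made cannot be told apart here, and the labels do not describe the dissection further. Of 14 listed and tested cerebellar genes 0 were called. Their farnesol sums, 1712 to 2819 CPM, spanned those of the naive libraries other than replicate 4, 1944 to 2448 CPM. Naive replicate 4, at 413 CPM, widened the naive spread, so a moderate change of these genes could have been missed. Gabra6, for example, measured 0.40 ± 0.38 (adjusted p = 0.449), with 0.651 CPM in naive replicate 4.

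Myelin genes were nearly level in this measurement. Of 20 listed and tested 0 rose and 2 fell, among them Cnp, a protein of non-compact myelin (-0.21 ± 0.07). The count of falls was 4 with DESeq2, with no count filter and without farnesol replicate 6 or naive replicate 8, 5 with all 10 farnesol libraries or the rRNA gene as a covariate, and 1 in the fit of all 36 libraries. Mbp, which holds the membranes of compact myelin together, measured 2835 to 3704 CPM (median 3053) in naive and 2702 to 3588 CPM (median 3274) in farnesol brains (-0.01 ± 0.07, adjusted p = 0.905). Of 14 listed and tested oligodendrocyte precursor genes 7 fell and 0 rose, with Tnr (-0.25 ± 0.05), Sox10 (-0.31 ± 0.07), Pdgfra (-0.23 ± 0.06) and Olig1 (-0.21 ± 0.05) of smallest p. Of 25 listed and tested cytosolic ribosomal protein genes 0 were called, with a median log2 change of -0.06.

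The 3 farnesol libraries below 4000 CPM of the rRNA gene allowed a check on what the choice of libraries leaves out. In 1 fit of all 36 libraries, 76 of 19737 genes (0.385%) differed between the 7 farnesol libraries above that value and the 3 below, 39 higher and 37 lower. That count was unstable: it ran from 10 (without farnesol replicate 2) to 96 (without farnesol replicate 5) as single farnesol libraries were left out, and was 275 with DESeq2. Since the rule used this split, the count describes the sets. Of the 76 genes, 74 were tested against naive and 29 of these were called there, beside 28.2% of all genes tested against naive. The same 7 farnesol libraries enter both comparisons, so their calls are not independent. Of the 76, 2 were members of the gene lists, Insig1 and Plvap. Insig1, which holds the sterol sensor in the endoplasmic reticulum, was given above with the cholesterol genes (-0.20 ± 0.05 against naive).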

How the data were processed

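The values are read counts per gene, not normalized, as deposited by the authors in a single table. Mapping used STAR 2.5 and mm10, per the submitters' processing notes, while the labels' extraction protocol also names Kallisto. Which counter and annotation were used, and whether counting was by strand, is not given in the sources here. Depth was 14.7 to 23.01 M counts in the 15 libraries. GENCODE M21 symbols and coordinates (GRCm38) matched 54495 of 54532 identifiers. Where 2 identifiers shared a symbol, the one with more reads was used.

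Genes were filtered with filterByExpr (minimum count 10, minimum total 15), scaled by TMM and tested with edgeR 4.0.16 (R 4.3.3; glmQLFit and glmQLFTest, group only) on the 15 libraries, with Benjamini-Hochberg adjustment over 17283 genes and a threshold of 0.05. The SE was taken as the size of the log2 change over the root of the F statistic. Farnesol libraries above and below 4000 CPM were compared in 1 model of all 36. The mitochondrial share was tested by exact permutation. The pipeline was tested on simulated data.

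The members and gene lists were chosen with earlier results of these data known. Named genes were the 8 largest rises and 8 largest falls with 1 CPM or more on average in 1 of the groups, the 6 rises and 6 falls of smallest p, up to 4 members of smallest p per list described, any tested member of the cholesterol, farnesyl and PPAR lists, and Mbp, Gfap, Aif1, Cd74, Fdps, Ppargc1a and Lcn2, leaving out unnamed loci; some genes of these sets are not reported here. Genes that complete a count of 5 or fewer (Lsr, Slco1c1, Cldn5, Tjp1, Olfml3, Nr3c1, Dusp1, Per1, Arntl, Nr1d1, Hsf1 and Hk2) and markers too low to test were named after their values were seen. Replicates are separate samples by the labels, which do not name separate animals, so p-values measure the spread between these samples. No pair of libraries of a group agreed within sampling noise. Alternatives were RLE scaling, DESeq2 1.42.0, limma-voom (limma 3.58.1), 2 other count filters, a fit of all 36 libraries, all 10 farnesol libraries, a replicate block, the rRNA gene as a covariate, leaving out rRNA and mitochondrial genes, and leaving out each library.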

Additional observations from a re-analysis of the deposited data

Results flagged for a closer look

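Within each group the highest or lowest library was set against its nearest neighbour by Dixon's gap test for every tested gene the report names. Of 352 groups of values 33 stood out, and chance alone gives about 5% where values have a normal spread. Genes near 0 CPM, such as Sele, Klhl30 and Ccl8, do not have such a spread, and a gap there can rest on a few counts. Values are CPM of the library that stood out, with the nearest library of its group in brackets.

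Farnesol replicate 9 was far above its group in Cd14 11.1 [7.87], Gbp2 72.7 [34.0], Gbp5 48.0 [14.7], Tgtp1 12.9 [5.65] and Tgtp2 18.5 [9.29]. Farnesol replicate 9 was far below its group in Mvd 13.4 [18.5]. Farnesol replicate 6 was far above its group in Frmd7 1.81 [0.687], Ms4a15 0.879 [0.117] and Sp8 5.33 [2.70]. Farnesol replicate 10 was far above its group in Fdps 2.83 [1.64] and Klhl30 0.193 [0.0573]. Farnesol replicate 5 was far below its group in Gpc5 30.9 [35.02] and Vamp2 791 [897]. Farnesol replicate 8 was far above its group in Ngp 8.95 [5.73] and Vwf 84.2 [71.1]. Farnesol replicate 7 was far above its group in Nr4a3 24.6 [22.5]. Of these, Gbp2, Gbp5, Tgtp1 and Tgtp2, which stood out in replicate 9, are interferon-induced GTPase genes.

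Naive replicate 1 was far above its group in Pdss1 11.1 [8.01]. Naive replicate 1 was far below its group in Hsph1 278 [306], Ncan 195 [228] and Slco1c1 48.4 [57.8]. Naive replicate 7 was far above its group in Gh 62.5 [13.6], Lars2 471 [407] and Prl 135 [17.8]. Naive replicate 7 was far below its group in Tm7sf2 14.0 [16.2]. Naive replicate 2 was far above its group in Sele 0.134 [0]. Naive replicate 2 was far below its group in Acat2 36.6 [41.3]. Naive replicate 3 was far above its group in Ccl8 0.180 [0.0679] and Mvd 28.7 [23.96]. Naive replicate 4 was far below its group in Cldn5 40.0 [47.2]. Naive replicate 5 was far above its group in Cp 22.1 [19.0] and Selp 0.212 [0.0533]. Naive replicate 6 was far above its group in Per1 132 [112] and S100a8 1.54 [0.746].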

How the results depend on the processing

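The count of 4872 called genes lay between 4162 and 5856 under RLE scaling, DESeq2, limma-voom, both other count filters, the fit of all 36 libraries, all 10 farnesol libraries, the rRNA gene as a covariate and the removal of rRNA and mitochondrial genes. It lay between 4185 and 5042 as each of the 15 libraries was left out. Replicate numbers 4 to 8 occur in both groups, but the numbers did not pair the libraries: the correlation of deviations of same-numbered libraries was -0.0040, 0.21, -0.021, -0.073 and 0.018, and 1 of 5 farnesol libraries correlated best with its own number. With the number as a replicate block 3149 genes were called, 1384 of them lower. The mitochondrial difference kept its direction and an exact permutation p under the threshold in every setting, from -0.656 to -0.452 percentage points.

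Of 159 called genes named in the report, 126 kept their call under all 25 alternatives that gave a value, 33 lost it under at least 1, and none changed direction. A gene that an alternative did not test was not counted as losing its call there. S100a5 and Klhl30 gave a value in only 17 of the 25, and other genes of few reads, such as Il1b, Ccl8 and Cxcl1, in 24. The block ended 20 calls and the rRNA covariate 8. Of 16 named genes not called, 3 passed under some alternative. The fit of all 36 libraries ended the calls of Aif1, Olfml3, Hk2, Sall1, Pdk4, Prl and Gh among others. In that fit 5 activated microglia and macrophage genes rose in place of 10 and 3 lysosomal genes in place of 9. With the block, 1 nuclear respiratory chain gene fell in place of 13 and 9 glycolysis genes in place of 16.

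Leaving out 1 library ended some calls of small changes. These were Cldn5 (without farnesol replicate 5, 9 or 10), Idi1 (farnesol 8 or 9, naive 2), Pdk4 (naive 3), Tm7sf2 (farnesol 4, 5 or 7, naive 5 or 7), Siglech (farnesol 4, 6 or 9, naive 7), Stard4 (farnesol 4, 8 or 9, naive 3, 7 or 8), Nr1d1 (farnesol 4, 5, 8 or 9, naive 2 or 6), Lsr (farnesol 4, 5 or 6, naive 2, 3 or 8), Dusp1 (farnesol 4, 6, 7 or 8, naive 6 or 7), Per1 (farnesol 4, 5, 6 or 8, naive 6, 7 or 8), Ucp2 (farnesol 4, 5 or 9, naive 2, 4, 7 or 8) and Tjp1 (farnesol 4, 6, 7, 9 or 10, naive 2, 3, 4, 5 or 7), with adjusted p up to 0.107. For Fdps the libraries were farnesol 4, 6, 8, 9 or 10 and naive 2, 3, 5, 7 or 8 (0.59 to 0.82, adjusted p up to 0.119).

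The 76 genes that separated farnesol libraries above and below 4000 CPM (39 higher, 37 lower) numbered 37 in a fit of the 10 farnesol libraries (17 higher, 20 lower), 73 under RLE scaling and 275 with DESeq2 (154 higher, 121 lower). Without single farnesol libraries they numbered 10 to 96, 8 to 53 of them higher and 2 to 50 lower. The counts were 24, 10, 13, 44, 26, 25, 46 and 22 without farnesol replicates 1, 2, 3, 4, 6, 7, 8 and 10. The cause of these differences was not tested. Genes with few reads, among them the T cell receptor chains, were removed by the count filter and entered only the fits with no filter or of all 36 libraries.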
